A study of Homo sapiens with 2 samples.

Results

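The imprinted gene loci described here were the accessible regions of GM12878 cells at 8 genomic intervals that hold 9 genes: H19 and IGF2 together, KCNQ1OT1, MEST, PLAGL1, MEG3, SNRPN, PEG3 and GNAS. A region was a member if its midpoint lay in an interval or within 20 kb of it in hg19. This gave 7 of the 23612 regions in the list. The membership rule used position only and none of the measured values. GM12878 is a human B lymphoblastoid line, made by transforming B cells with Epstein-Barr virus, and it was untreated. Both ATAC-seq libraries, from separate cultures of 50000 cells each, form 1 group. In ATAC-seq a transposase inserts sequencing adapters where DNA is open. A single deposited list of regions stands for the 2 cultures and holds no value per culture or per allele, so no condition, culture or parental copy could be compared and no test was made. Depth is unknown. The name of the list points to a cut on reproducibility (IDR) and to filters for mappability, mitochondrial and blacklisted sequence. Regions that these steps removed cannot be seen here. An interval without a listed region is therefore not read as closed chromatin. The B-cell identity of the line was not checked here against marker genes.

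Imprinted genes are transcribed mainly or only from the copy inherited from the mother or from that inherited from the father. The choice is set by differentially methylated regions, stretches of CpG-rich DNA that carry DNA methylation on a single parental copy, and many of them lie at promoters. The unmethylated copy can be open and bound by proteins such as CTCF, whereas the factor ZFP57 binds the methylated copy and helps to keep it methylated in early embryos. Genes expressed from the paternal copy include IGF2, KCNQ1OT1, MEST, PLAGL1, SNRPN and PEG3, and those expressed from the maternal copy include H19 and MEG3. GNAS gives transcripts of maternal, paternal and biparental origin from separate starts.

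The promoter sequences below are shown because the results turn on whether a region lay at a gene's start. They come from the RefSeq promoter table of GRCh38.p14, which held 24 starts of 6 of the 9 genes (PLAGL1, SNRPN, GNAS, H19, MEST and MEG3), each as 250 bases before and 50 bases after the start. The list of regions is in hg19, so these sequences were not matched to the regions by position and are not the regions' own sequences. Capitals mark matches, on either strand, to TGCCGC, the letters bound by ZFP57, and to GCCATNTT, a core of the YY1 motif. The first sequence is the most upstream start of PLAGL1, the gene whose 5′ end carried the widest member. The next is the start of PLAGL1 with the highest CpG ratio. They are followed by the most downstream start in the table for SNRPN, whose region lay far inside its interval, and by the most upstream start of 3 genes without a region: H19, MEST and MEG3.
PLAGL1 most upstream start (chr6:144064550-144064849, minus strand): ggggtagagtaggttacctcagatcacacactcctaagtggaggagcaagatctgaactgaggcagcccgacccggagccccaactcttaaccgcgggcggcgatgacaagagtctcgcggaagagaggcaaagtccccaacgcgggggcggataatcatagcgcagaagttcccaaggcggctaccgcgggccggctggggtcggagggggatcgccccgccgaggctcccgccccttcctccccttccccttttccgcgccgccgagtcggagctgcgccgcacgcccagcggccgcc
PLAGL1 start with most CpG (chr6:144008210-144008509, minus strand): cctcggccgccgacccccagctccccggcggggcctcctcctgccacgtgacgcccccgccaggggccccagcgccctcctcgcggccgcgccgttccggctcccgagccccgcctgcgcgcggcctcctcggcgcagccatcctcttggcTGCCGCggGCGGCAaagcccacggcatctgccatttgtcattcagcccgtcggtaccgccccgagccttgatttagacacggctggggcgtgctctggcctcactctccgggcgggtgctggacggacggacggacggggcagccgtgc
SNRPN most downstream start (chr15:24956050-24956349, plus strand): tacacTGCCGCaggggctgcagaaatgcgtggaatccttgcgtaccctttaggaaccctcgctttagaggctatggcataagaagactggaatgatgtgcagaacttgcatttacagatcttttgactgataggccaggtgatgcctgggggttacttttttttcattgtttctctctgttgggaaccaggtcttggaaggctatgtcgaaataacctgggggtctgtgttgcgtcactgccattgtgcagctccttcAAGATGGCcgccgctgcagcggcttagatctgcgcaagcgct
H19 start (chr11:2001217-2001516, minus strand): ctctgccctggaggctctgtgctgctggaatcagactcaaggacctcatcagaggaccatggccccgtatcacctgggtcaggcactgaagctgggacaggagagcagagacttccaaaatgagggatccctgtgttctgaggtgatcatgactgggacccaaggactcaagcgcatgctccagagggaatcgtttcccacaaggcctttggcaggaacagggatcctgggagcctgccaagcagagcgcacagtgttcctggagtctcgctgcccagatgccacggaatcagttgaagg
MEST most upstream start (chr7:130485925-130486224, plus strand): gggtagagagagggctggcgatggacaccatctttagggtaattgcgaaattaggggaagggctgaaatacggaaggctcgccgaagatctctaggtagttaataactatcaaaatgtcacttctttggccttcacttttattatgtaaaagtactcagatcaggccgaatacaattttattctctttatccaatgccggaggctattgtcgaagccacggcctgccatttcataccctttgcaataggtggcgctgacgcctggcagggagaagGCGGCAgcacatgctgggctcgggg
MEG3 most upstream start (chr14:100825858-100826157, plus strand): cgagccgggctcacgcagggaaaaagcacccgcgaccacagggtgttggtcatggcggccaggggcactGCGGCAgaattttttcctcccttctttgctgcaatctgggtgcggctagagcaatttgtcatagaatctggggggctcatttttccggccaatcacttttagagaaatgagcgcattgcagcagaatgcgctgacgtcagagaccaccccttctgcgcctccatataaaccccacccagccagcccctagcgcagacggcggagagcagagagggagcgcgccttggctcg

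Accessible regions were listed at 4 of the 8 intervals. The share of comparable intervals elsewhere with a region was not computed, so this count is not read as low or high. PLAGL1 held 3 regions, GNAS held 2, and KCNQ1OT1 and SNRPN held 1 each. No region was listed at H19 and IGF2, MEST, MEG3 or PEG3. The intervals lay in bands 6q24.2 (PLAGL1), 20q13.32 (GNAS), 11p15.5 (KCNQ1OT1, H19 and IGF2), 15q11.2 (SNRPN), 7q32.2 (MEST), 14q32.2 (MEG3) and 19q13.43 (PEG3), which are the bands known for these genes. The member farthest outside its interval was 2.56 kb away, and the nearest region that was not a member was 31.2 kb away, beyond PLAGL1. Membership therefore did not rest on regions near the 20 kb limit.

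**Figure D1:**
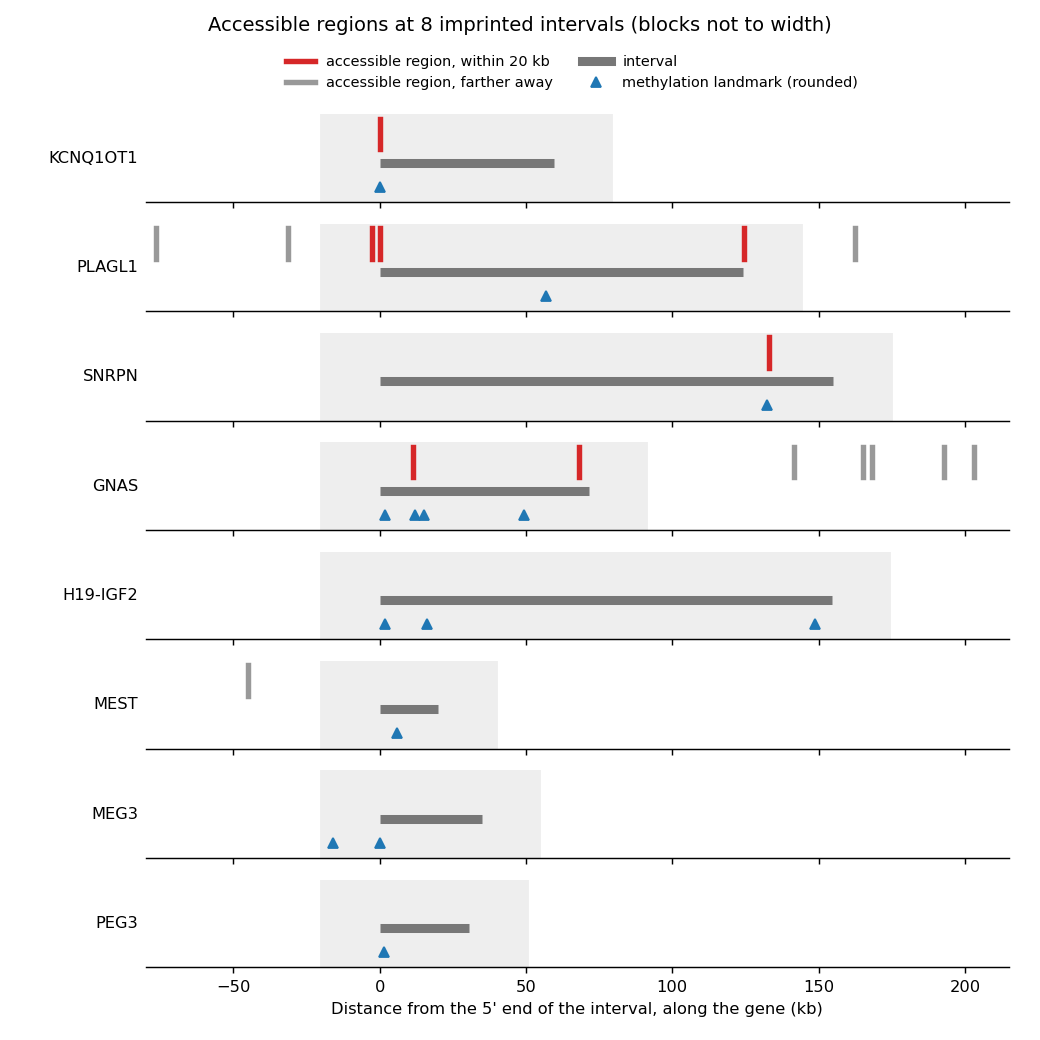
Positions of accessible regions at the 8 intervals, in kb from the 5′ end of each interval and running along the gene (for H19-IGF2, from the 5′ end of IGF2). Vertical blocks are regions, drawn at a fixed thickness, dark horizontal bars are the intervals, pale shading adds 20 kb on each side, and triangles are known differentially methylated regions with rounded bounds. The 7 members lie at KCNQ1OT1, PLAGL1, SNRPN and GNAS, and the other 4 intervals hold none.

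KCNQ1OT1 is a long non-coding RNA that is transcribed against the direction of KCNQ1 from the paternal copy and silences neighbouring genes on that copy. Its interval was chr11:2661768-2721228. The single region there, chr11:2720897-2721604, was 708 bp wide and had a score of 1000, the highest in the list. The score is the authors' own value for each region, no header or label gives its scale, and it is used only to rank regions within the list. The region spanned the 5′ end of KCNQ1OT1, with 331 bases inside the gene and 376 before it. All 708 bp lay in the differentially methylated region known at this start, which is the imprinting control region of the KCNQ1 domain. The bounds of this and the other known differentially methylated regions, called landmarks here, were set in hg19 from general knowledge and rounded to the kb. Overlaps of less than a kb with a landmark are therefore approximate. No other region lay within 202 kb of the interval.

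SNRPN encodes a component of the splicing machinery and is transcribed from the paternal copy, and its start is the imprinting centre of the Prader-Willi domain. Its interval was chr15:25068794-25223729, and the single region, chr15:25201229-25202114, was 886 bp wide with a score of 1000. The midpoint lay 132.9 kb inside the interval, counted from its 5′ end. That end belongs to upstream starts of the gene, and no region lay within 132 kb of it. Of the region, 772 bp (87.1%) lay in the differentially methylated region known at the main start of SNRPN. This share is approximate, since the overlap is smaller than the kb to which the bounds were rounded. The nearest region before the SNRPN region was 1823 kb away and the nearest after it lay 459 kb beyond the interval. Of the 23210 stretches between neighbouring regions, 0.327% were at least that long, and these made up 7.21% of the length between regions. Those that touch centromeric, variable or stalk bands were left out, but unsequenced stretches elsewhere were not accounted for.

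GNAS encodes the stimulatory G-protein alpha subunit, and the locus also gives the transcripts NESP55 and XLAS and the antisense RNA GNAS-AS1. Its interval was chr20:57414795-57486250, with a region at each of 2 places. The first, chr20:57425837-57426259, was 423 bp wide with a score of 625, the lowest among the members. It lay 11.3 kb inside the interval from the 5′ end, and 260 bp of it (61.5%) fell in the differentially methylated region known at the start of GNAS-AS1. This overlap is smaller than the kb to which the bounds were rounded. Its distance from the rounded bound of the XLAS landmark was 2.74 kb and from that of NESP55 6.84 kb, and it touched neither of them. Only 9.70% of all regions in the list had a lower score, and 92.8% were at least as wide. The second, chr20:57482585-57483320, was 736 bp wide with a score of 1000. It lay 3.30 kb before the 3′ end of the interval, and the nearest landmark, the exon A/B start, was 17.6 kb away from it. The 5′ end of the interval itself, where the NESP55 transcript begins, had no region within 11.0 kb.

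PLAGL1, a zinc finger transcription factor, held the most members, and none of them lay at its known differentially methylated region. Its interval was chr6:144261437-144385735. The widest member, chr6:144384535-144386837, was 2303 bp wide with a score of 1000. It spanned the 5′ end of PLAGL1, with 1200 bases inside the gene and 1102 before it. Only 1.65% of the regions in the list were at least as wide. A second region, chr6:144387902-144388682, lay 1064 bp farther upstream and was 781 bp wide, also with a score of 1000. The third, chr6:144261083-144261536, was 454 bp wide with a score of 795 and spanned the 3′ end of the interval. Between the third and the first, 123 kb held no region. This stretch contains the alternative start that is known to be methylated on the maternal copy and to give the imprinted transcript, and the nearest region was 54.5 kb away from it. The 5′ end of the interval belongs to the upstream promoter, which is known as the biallelic start of the gene. Of the 2 RefSeq starts of PLAGL1 printed above, the most upstream held 31 CpG in 300 bases and no match to TGCCGC, and the other held 39 CpG and 2 matches. The 5 RefSeq starts were not matched to the methylated one by position between builds. Its landmark, with rounded bounds, ran from 55.7 to 57.7 kb inside the 5′ end of the interval. By the coordinates printed above, the second start lies within that range downstream of the most upstream start.

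The 4 intervals without a region lay in stretches of 272 to 1383 kb where the list held none, and stretches of this size also bordered the regions at KCNQ1OT1 (299 kb) and SNRPN (1823 kb), while the longest at GNAS and PLAGL1 were 198 and 123 kb. H19 is a maternally expressed non-coding RNA and IGF2 a paternally expressed growth factor. They share the control region upstream of H19, where CTCF is known to bind the maternal copy. Their interval, chr11:2016406-2170833, lay in a stretch of 545 kb between neighbouring regions, which were 139.9 kb below it and 250 kb above it. MEST, a paternally expressed gene of the hydrolase fold family, has the interval chr7:130126046-130146133. It lay in a stretch of 272 kb, and its nearest region was 44.8 kb upstream, at chr7:130080570-130081269. MEG3, a maternally expressed non-coding RNA, has the interval chr14:101292445-101327363. It lay in the longest of these stretches, 1383 kb, with the nearest region 449 kb upstream. PEG3, a paternally expressed zinc finger gene, has the interval chr19:57321445-57352094. It lay in a stretch of 595 kb, and its nearest region was 214 kb below the interval, on the side of the 3′ end.

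Stretches of this length were few by number but made up much of the length between regions. The median distance between neighbouring regions was 44.0 kb, and stretches at least as long as that at MEST were 10.8% of all, those at H19 and IGF2 4.01%, those at PEG3 3.45% and those at MEG3 0.681%. Counted by length, stretches at least as long as that at MEST made up 55.9% of the total length between regions, those at H19 and IGF2 34.3%, those at PEG3 31.6% and those at MEG3 12.0%. The authors numbered the regions in order of position, and 0 numbers were skipped across any of the 8 intervals. This cannot show whether regions were removed there, because numbers given after a removal would leave no break.

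Of the 9 gene starts, 2 were spanned by a region: those of KCNQ1OT1 and PLAGL1. The share over all gene starts of the genome was not computed, so this count is not read as low or high. A start was taken as the end of the interval that the gene's strand gives, except for H19, whose start was rounded to the kb. The count within 2 kb was the same. The next nearest was GNAS at 11.0 kb, then MEST at 44.8 kb, SNRPN at 132.4 kb and H19 at 142.4 kb. For SNRPN the end of the interval belongs to upstream starts. Its region lay elsewhere, with most of it inside the rounded bounds of the differentially methylated region known at the main start. For GNAS the end is the NESP55 start, and other starts of the locus were not counted here. PEG3 at 244.9 kb, IGF2 at 250 kb and MEG3 at 449 kb were farthest. Of 14 landmarks at these loci, 3 shared bases with a region: KCNQ1OT1, SNRPN and GNAS-AS1. All 3 are known to be methylated on the maternal copy, as are 8 of the 14 in all, and 0 of the 6 known to be methylated on the paternal copy shared bases with a region. The counts are small, and the landmarks of a locus are not independent of each other. No share over other stretches of the genome was set beside the landmark counts, so they are not read as low or high. Apart from NESP55 at GNAS, the landmarks methylated on the paternal copy all lay at H19 and IGF2 or at MEG3, which held no region. In the 4 intervals with a region, 7 of the 14 landmarks lay, and the other 7 lay in the 4 intervals without one. Of the 7 members, 3 touched a landmark and 4 did not.

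**Figure D2:**
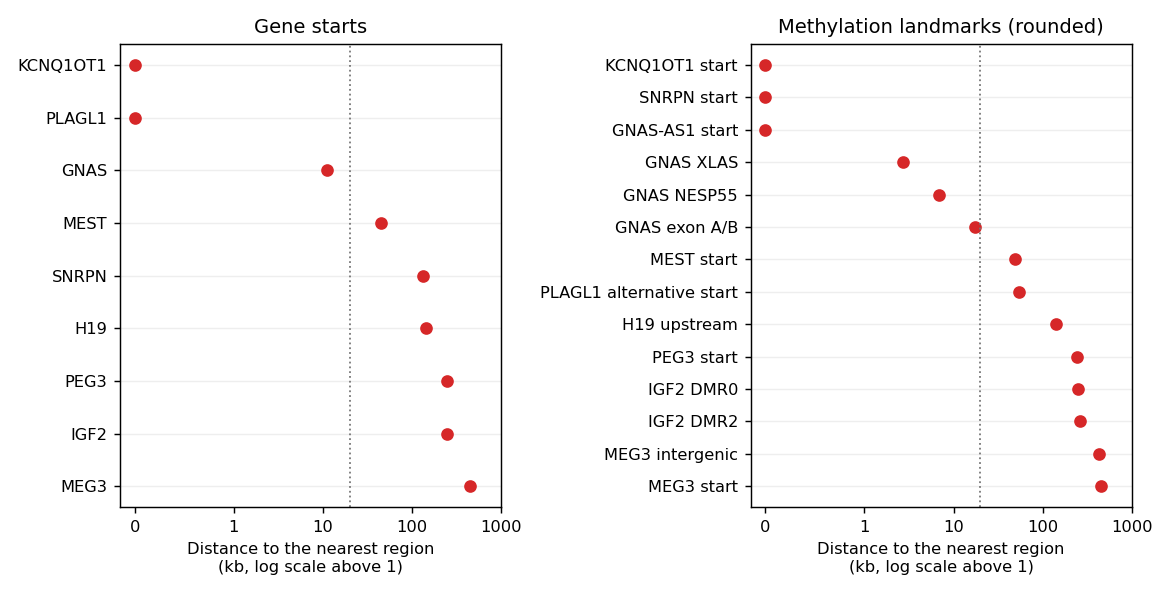
Distance in kb from each of 9 gene starts (left) and each of 14 known differentially methylated regions with rounded bounds (right) to the nearest accessible region, on an axis that is logarithmic above 1 kb. The dotted line marks 20 kb. Except for H19, a gene start is the 5′ end of the interval, so SNRPN is measured from its upstream starts and GNAS from NESP55. The points at 0 are KCNQ1OT1 and PLAGL1 among the starts, and KCNQ1OT1, SNRPN and GNAS-AS1 among the landmarks, while MEG3 is farthest in both.

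Taken as a group, the imprinted intervals held accessible regions at a density whose counting interval includes that of the rest of the genome. With 20 kb on each side they spanned 970.2 kb and held 7.21 regions per Mb (95% exact Poisson interval, 2.90 to 14.9), against 7.72 (7.62 to 7.82) on the rest of chromosomes 1 to 22 and X. On the rest of the 7 chromosomes that hold the loci it was 7.87 (7.67 to 8.06). The intervals of the counts cover counting error only, and regions are not independent of their neighbours. Regions covered 0.648% of the imprinted intervals and 0.682% of the rest of chromosomes 1 to 22 and X. PLAGL1 decided much of the value: without it the others held 4 regions, or 4.96 per Mb.

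The listed densities differed among the loci and among the bands around them, but each locus value rests on at most 3 regions. No counting interval was computed for single loci, and differences among them were not tested. PLAGL1 held 18.3 regions per Mb in band 6q24.2, with 17.9 per Mb over the whole band. GNAS held 17.9 per Mb in band 20q13.32, with 7.37. KCNQ1OT1 held 10.1 per Mb and H19 and IGF2 0 in the same band, 11p15.5, with 7.50. SNRPN held 5.13 per Mb in band 15q11.2, with 3.60. PEG3 held 0 in band 19q13.43, with 15.6 per Mb, MEST 0 in 7q32.2, with 5.83, and MEG3 0 in 14q32.2, with 4.71. Within 1 Mb on each side of the interval, the count was 34 regions at PLAGL1, 22 at PEG3, 16 at MEST, 15 at GNAS, 14 at MEG3, 10 at KCNQ1OT1, 9 at H19 and IGF2, and 3 at SNRPN.

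In width and score the members covered much of the range of the list. Their median width was 736 bp (range 423 to 2303), against 756 bp (quartiles 547 and 1082) on the rest of chromosomes 1 to 22 and X. Of the 7, 5 had the highest score of 1000, or 71.4% (95% exact binomial interval, 29.0% to 96.3%), against 60.1% of all 23612 regions. The other 2 were the narrowest, 454 bp at PLAGL1 and 423 bp at GNAS-AS1, with scores of 795 and 625. Apart from the wide region at the PLAGL1 start, the members with the highest score lay between 708 and 886 bp.

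**Figure D3:**
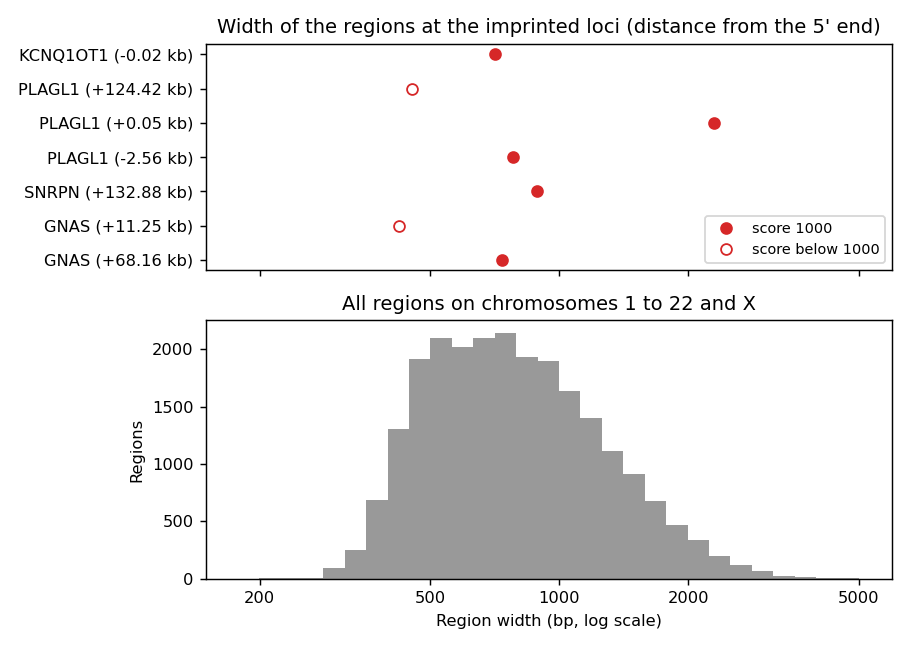
Width in bp, on a log axis, of the 7 regions at the imprinted loci (top, 1 point each, filled where the score is 1000 and open where it is lower, with the midpoint's distance from the 5′ end of the interval) and of all regions on chromosomes 1 to 22 and X (bottom). The region at the PLAGL1 start, 2303 bp wide, lies in the upper tail, and the 2 open points, 454 and 423 bp, are the narrowest members.

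PLAGL1 was the only gene in the promoter table with a region at the 5′ end of its interval. Its starts ranged from sparse to dense in CpG. No start of H19, MEST or MEG3, the genes in the table without a region, reached the ratios of the densest PLAGL1 starts. Some starts of GNAS, which had no region at the 5′ end of its interval, exceeded them. The ratio of observed to expected CpG in 300 bases, which corrects the number of CpG for base composition, was 0.91 at the most upstream start of PLAGL1, where 82.1% of the 35114 promoters in the table had a lower ratio. The other 4 PLAGL1 starts had ratios of 0.93 (the start printed second), 0.24, 0.24 and 0.17. Among the genes without a region, MEST had ratios between 0.66 and 0.82 at its 5 starts, MEG3 between 0.67 and 0.73 at 3 starts, and H19 0.24 at 1 start. The median over all promoters was 0.58 (quartiles 0.23 and 0.86). The 4 starts of SNRPN ranged from 0.10 to 0.58, and the 6 of GNAS from 0.49 to 0.99. Both genes had regions only away from the 5′ end of the interval. Most of the SNRPN region lay in the differentially methylated region known at its main start. The sequence of a start does not show which bases are methylated, and no methylation was analysed here.

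**Figure D4:**
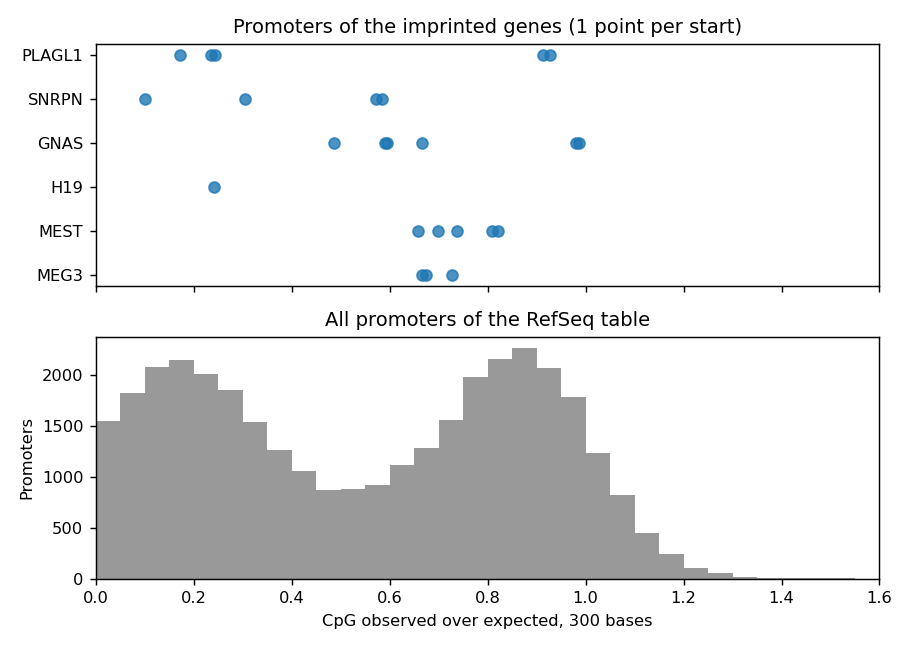
Ratio of observed to expected CpG in the 300 bases around each RefSeq start of the 6 imprinted genes in the table (top, 1 point per start) and in all 35114 promoters of the table (bottom, number of promoters per bin of 0.05). PLAGL1 and GNAS have starts above 0.9, H19 lies at 0.24, and MEST and MEG3 lie between 0.66 and 0.82.

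The 3 motifs were searched on both strands in the 24 starts. TGCCGC was present in 11 of them, from 5 of the 6 genes (H19 had none), against 16.7% of all promoters of the same length in the table. Some starts of a gene lie so close together that they share sequence, and in the 19 separate stretches they form it was present in 7. TGCCGC itself holds a CpG, and the share over all promoters was not matched for CpG content. No excess at the imprinted genes is therefore read from these counts. GCCATNTT was present in 2 starts, 1 of PLAGL1 and the most downstream of SNRPN printed above, against 6.58% of all promoters. The long form of the CTCF motif was present in 0 of the 24 starts and in 0.0655% of all promoters. The control region upstream of H19 lies outside these windows. A match is a description of the letters and not a bound site.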

How the data were processed

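ATAC-seq libraries of 2 GM12878 cultures, in 1 group, were represented by 1 list, in which the authors deposited a start, an end, a number and a score for each region. Scores in the deposited list are whole numbers from 541 to 1000 on a scale that no header or label names. Per the submitters' processing notes, the build was hg19 and the tools, in no stated role, were MACS2 2.1.0, bedtools 2.24.0, BWA 0.7.13, Trim Galore 0.3.3, SAMtools 0.1.19, CASAVA 1.8.4 and Picard 1.92. No source used here says whether reads were shifted for the transposase. Depth is unknown.

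The members, landmarks and summaries were chosen with earlier results of these data known. The 9 genes of the rule were named whether or not a region lay there. Regions were assigned by midpoint, bands came from the R package circlize 0.4.16, and strands came from the promoter table or, for IGF2, KCNQ1OT1 and PEG3, from general knowledge. The bounds of the differentially methylated regions and the parental copy they are methylated on were general knowledge. Calculations, checked on simulated data, used Python 3.11.15, numpy 2.4.6, pandas 2.3.3, scipy 1.17.1 and matplotlib 3.10.9. Densities have 95% exact Poisson intervals and shares exact binomial ones, which cover counting error only. Alternatives were other distances, membership by any shared base, the highest score only, leaving out each interval, and other distances from starts and landmarks.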

Additional observations from a re-analysis of the deposited data

How the results depend on the processing

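The 7 results were run under other settings, giving 69 combinations of a result and a setting, with most settings counted for several results. Of these combinations, 66 left the result the same, 3 moved it and 0 reversed it. Counts within 1.5 times were taken as the same, and a density, median width or share inside its interval or range. These are wide with 7 members, so this tally does not measure robustness. The count of regions moved to 4 with no margin and to 17 with 100 kb, by the construction of the setting, and leaving out 1 interval at a time gave 4 to 7 regions, with 4 without PLAGL1. With any margin from 0 to 100 kb, 3 to 5 intervals held a region and the density ran from 6.15 to 8.64 per Mb. With the highest score only, 5 regions at 4 intervals were left, and 2 of the 14 landmarks shared bases with a region, since the region at GNAS-AS1 has a score of 625. A distance of 5 kb brought the landmarks to 4 with XLAS. Membership by any shared base changed none of the 5 results it was run on. No paired analysis was possible because both cultures share a single group and a single list, and for the same reason no replicate could be left out. Depth is unknown, so a locus without a region cannot be called closed.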

Other observations

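Beyond the 20 kb margin, 10 more regions lay within 100 kb of an interval, 6 of them at PLAGL1, 3 at GNAS and 1 at MEST. The nearest to PLAGL1, chr6:144416203-144417754, was 1552 bp wide with a score of 1000. The nearest to GNAS, chr20:57555924-57556574, was 651 bp wide with a score of 766. No further region lay within 100 kb of H19 and IGF2, KCNQ1OT1, MEG3, SNRPN or PEG3.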
